A study of Mus musculus with 12 samples.

Results

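Mouse embryonic stem cells (ESCs) without HP1α were compared with the embryoid bodies (EBs) grown from them, on 4 of the 12 arrays of the study: EB HP1αKO, replicates 1 and 2, against ESC HP1αKO, replicates 1 and 2. Members were the 10488 genes, of 19938 genes with a single symbol on the array, whose signal exceeded 45 (log2 5.49) on at least 1 of these 4 arrays. Both groups carry the genotype Cbx5-/-, the line label R1 and no treatment, and Cbx5 encodes HP1α. ESCs were kept on gelatin and inactivated embryonic fibroblast feeders with leukaemia inhibitory factor (LIF) and, per the study's methods, sorted for the surface antigen SSEA1 before RNA was taken. EBs grew in suspension without LIF and were taken at day 7. The same comparison in WT (line label HM1, called a littermate control in the methods) and in HP1βKO cells (Cbx1-/-, line label R1), with 2 arrays in each group, served to show where the HP1αKO cells differed. The number of clones behind each genotype is not stated in the sources read. Replicates are labelled biological, but nothing says that they came from separate cultures, so p-values measure only the spread between these samples, which may be technical.

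HP1α is one of the chromodomain proteins that bind methylated lysine 9 of histone H3 and are found at pericentromeric heterochromatin. When ESCs lose LIF and aggregate, the network of pluripotency factors around Oct4, Sox2 and Nanog is switched off, and cells of all germ layers form without direction. Contracting cardiac muscle, blood islands with primitive red cells, endothelium and visceral endoderm are well known products of such cultures.

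Values are deposited log2 signals, and differences are EB minus ESC on the log2 scale ± limma's standard error with n = 2 arrays in each group. A gene was called when its Benjamini-Hochberg adjusted p was below 0.05. In bulk RNA, fewer cells of a type and less RNA per cell cannot be told apart. The median signal over the genes tested was 7.40 and 7.39 on the EB arrays and 7.21 and 7.34 on the ESC arrays. The EB arrays were nearly alike, with an SD of the replicate difference of 0.13 against 0.50 for the ESC arrays. The correlation across genes was 0.997 between the EB arrays, 0.954 between the ESC arrays, and between 0.785 and 0.811 for an EB with an ESC array.

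To check the labels, the targeted gene was examined before all others. Cbx5 lay at 9.20 and 9.21 in the EBs and at 8.04 and 10.0 in the ESCs. The array labelled ESC HP1αKO 2 thus had a higher Cbx5 level than both EB arrays, and the array labelled ESC HP1αKO 1 a lower one, so the groups overlapped and the difference (0.19 ± 0.57, adjusted p = 0.813) has no single direction. In the EBs of the other genotypes Cbx5 was higher, at 10.36 and 10.40 in WT and at 10.26 and 10.31 in HP1βKO. All groups follow the labels, and each ESC array, called ESC 1 and the array labelled ESC 2 below, was also set alone against the EBs. Cbx5, Hprt and the noncoding RNA Meg3 had opposite orders in the WT ESC arrays: they lay at 9.66, 6.48 and 8.93 on ESC WT 1 and at 8.29, 8.84 and 5.62 on the array labelled ESC WT 2, against 8.04, 8.40 and 5.28 on ESC HP1αKO 1 and 10.0, 4.25 and 9.36 on the array labelled ESC HP1αKO 2. In the WT EBs Hprt lay at 4.22 and 4.40 and Meg3 at 9.73 and 9.31. In the HP1αKO EBs Hprt lay at 6.28 and 6.84 and Meg3 at 6.27 and 5.61. Whether the arrays labelled ESC WT 2 and ESC HP1αKO 2 were exchanged was not tested, and an exchange would change every value given for them. No source used here tells whether the Cbx5 probes fall within the deletion. Cbx1, which encodes HP1β, lay at 9.65 and 9.65 in the EBs and at 10.05 and 9.63 in the ESCs (-0.19 ± 0.22, adjusted p = 0.515). Cbx3, which encodes HP1γ, lay at 11.42 and 11.36 in the EBs and at 11.26 and 11.25 in the ESCs (0.13 ± 0.14, adjusted p = 0.484). Neither passed the test. The cell type labels were checked with defining markers. The mean signal of Pou5f1, Nanog, Sox2, Zfp42 and Esrrb was 10.2 on ESC 1 and 10.5 on the array labelled ESC 2 against 6.09 and 6.06 in EBs, and that of Actc1, Tnnt2, Myh6 and Myl7 was 11.1 on both EB arrays against 5.59 and 5.28 in ESCs.

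Of the 10488 genes, 4428 were called (42.2%), of which 2648 were higher (25.2%) and 1780 lower (17.0%) in the EBs. In all 4428, both EB arrays lay on the same side of both ESC arrays. Calling by this test makes such separation likely, so it is no separate support. Counts of tested list members below are to be read beside the shares of 25.2% and 17.0%. A change of at least 4-fold was seen in 386 of the higher and 210 of the lower genes, and of at least 16-fold in 41 and 27. One group mean lay under the floor in 1111 called genes, in 774 of them the ESC mean and in 337 the EB mean, so the size of these differences is uncertain, and in 74 more both means lay under it. The share of higher genes among the calls was 59.8%, but 42.9% after each array was centred on its median, which moved the median difference by -0.17. Against ESC 1 alone 4034 genes were called (38.5%), and against the array labelled ESC 2 alone 4208 (40.1%). In these fits, and wherever a single ESC array is used below, that array is assumed to vary like the other groups, which supply the spread. The SD of the replicate difference was 0.57, 0.50 and 0.39 in the ESC groups (WT, HP1αKO, HP1βKO) and 0.18, 0.13 and 0.19 in the EB groups. The spread used may thus be too small for a single ESC array, and counts from these fits too high. Without both ESC arrays whose Cbx5 level opposes the label 5267 genes were called. Both comparisons shared 2763 calls of the same sign, 1748 higher and 1015 lower in EBs. Without either EB array the count fell below the reported one by over 1.5-fold, to 2525 without EB 1 and 2546 without EB 2. A gene that exceeds the floor only in the group where it is high can differ in only one direction, so lists of genes with low signals are also given over all members on the array with no floor. With no floor 15.1% of 19938 genes were called higher and 9.76% lower, and the median difference was -0.03.

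Among genes with a proper symbol, the largest rises were in genes of primitive blood, heart muscle, fetal growth and connective tissue. Hbb-y, an embryonic β-like globin, lay at 10.58 and 10.43 in the EBs and at 3.32 and 3.53 in the ESCs (7.08 ± 0.15, adjusted p = 2.48e-08). Actc1, cardiac α-actin, lay at 12.38 and 12.35 in the EBs and at 6.59 and 5.40 in the ESCs (6.37 ± 0.60, adjusted p = 5.95e-05). Igf2, the imprinted fetal growth factor, lay at 12.18 and 12.12 in the EBs and at 6.58 and 6.44 in the ESCs (5.64 ± 0.31, adjusted p = 1.94e-06). In each of these genes all EB arrays stood far above all ESC arrays, and Actc1 was the one among them whose ESC arrays differed by over 1. The other rises among the top 15 were the atrial myosin light chain Myl7 (6.08), the embryonic globins Hba-x (5.97) and Hbb-bh1 (5.89), the imprinted Notch ligand homologue Dlk1 (5.91), cardiac troponin T (Tnnt2, 5.81) and the matrix genes Postn (5.64) and Lum (5.23). Igfbp5 (5.61), which binds insulin-like growth factors, Nrp1 (5.59), a coreceptor for VEGF and semaphorins, Capn6 (5.28), and the homeobox genes Meis2 (5.20) and Meis1 (5.12) complete them. The ESC mean of 13 of these 15 genes was under the floor, so the rises are from near background.

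The largest falls were in genes of the pluripotent state. Lncenc1, a long noncoding RNA of ESCs, lay at 4.10 and 4.39 in the EBs and at 10.24 and 10.83 in the ESCs (-6.29 ± 0.43, adjusted p = 8.12e-06). Pou5f1, which encodes Oct4, lay at 6.11 and 6.15 in the EBs and at 11.35 and 11.26 in the ESCs (-5.17 ± 0.14, adjusted p = 5.27e-08). Dppa5a, an RNA-binding protein of pluripotent cells, lay at 7.48 and 7.09 in the EBs and at 12.29 and 12.63 in the ESCs (-5.18 ± 0.28, adjusted p = 2.00e-06). Both ESC arrays stood far above both EB arrays in each of them, and Dppa5a was still well above the floor in EBs. Further falls of this size were in the transcription factors Nr0b1 (-6.14), Zfp42 or Rex1 (-5.95), Utf1 (-5.51) and Esrrb (-4.99), the F-box gene Fbxo15 (-6.16) and the DNA methylation cofactor Dnmt3l (-5.55). The Nodal antagonist Lefty1 (-4.99), the TGFβ family ligand Gdf3 (-4.98), Dppa4 (-4.80), the germline genes Tdrd12 (-5.13) and Hsf2bp (-5.0), and Zfp640 (-4.93) also belong to them. The EB mean of 12 of these 15 genes was under the floor. Gm6083, a locus number and for that reason not among the 15, had -4.80 ± 0.23 and lay just beyond Dppa4.

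**Figure D1:**
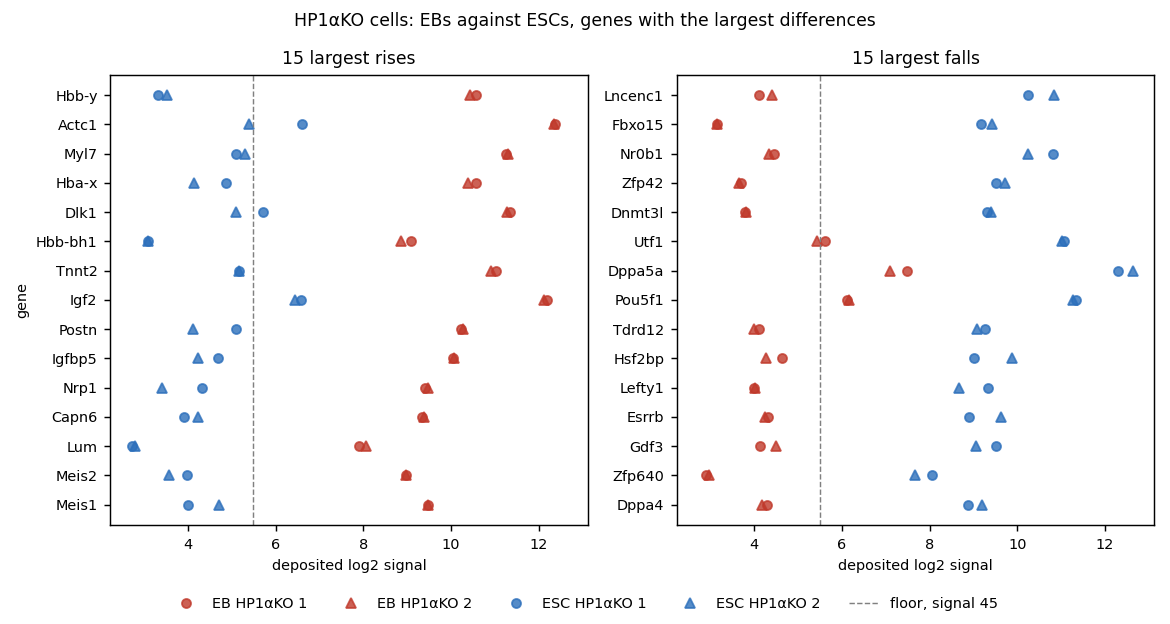
Deposited log2 signal (horizontal axis) of the 15 largest rises and the 15 largest falls in EB HP1αKO against ESC HP1αKO; red is EB, blue ESC, circles replicate 1, triangles replicate 2, and the dashed line is the floor, a signal of 45. EB and ESC arrays are apart in all 30 genes, and the EB replicates nearly coincide.

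To show the control regions of genes that carry these differences, the 250 bases before the RefSeq start (GRCm38.p6, written along the gene's strand) are given for 1 gene each of the cardiac, erythroid and naive pluripotency lists, the member with the largest difference that holds a motif of a factor known for that tissue. Capitals mark the motif. Actc1, at chr2:114052876-114053125 on the minus strand, holds a CArG box, the site of serum response factor, 37 bases before the start.
Actc1: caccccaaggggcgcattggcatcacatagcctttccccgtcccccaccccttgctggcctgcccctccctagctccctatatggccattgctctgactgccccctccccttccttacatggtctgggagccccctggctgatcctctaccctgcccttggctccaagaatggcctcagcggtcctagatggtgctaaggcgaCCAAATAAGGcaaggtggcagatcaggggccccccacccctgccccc
Alas2, the erythroid enzyme that starts heme synthesis, at chrX:150547167-150547416 on the plus strand, holds the GATA motif AGATAA on the other strand, 80 bases before the start.
Alas2: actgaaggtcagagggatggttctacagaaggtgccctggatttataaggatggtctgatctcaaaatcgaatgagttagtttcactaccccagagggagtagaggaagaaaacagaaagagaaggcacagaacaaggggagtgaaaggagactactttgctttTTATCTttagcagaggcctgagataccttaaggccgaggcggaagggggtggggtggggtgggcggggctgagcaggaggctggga
Zfp42, at chr8:43307010-43307259 on the minus strand, holds the octamer ATGCAAAT of Oct4 and its relatives on the other strand, 178 bases before the start.
Zfp42: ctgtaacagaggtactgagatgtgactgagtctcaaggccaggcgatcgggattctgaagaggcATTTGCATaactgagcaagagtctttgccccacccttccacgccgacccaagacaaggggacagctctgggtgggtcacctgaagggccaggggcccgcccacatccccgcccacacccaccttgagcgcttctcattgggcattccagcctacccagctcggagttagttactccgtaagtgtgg
These motifs were searched on both strands of windows of 300 bases that run to 50 bases past the start. Of the 15 named rises, 13 were matched to promoters by symbol, and 3 of them held a CArG box (Actc1, Myl7 and Igf2), 1 the GATA motif (Tnnt2) and 0 the octamer. Of the 15 named falls, 10 were matched, and 1 of them held the octamer (Zfp42) and 0 a CArG box or the GATA motif. Among the 8458 genes tested that were matched, the CArG box stood in 1.63%, the GATA motif in 7.05% and the octamer in 1.53%, and among all 27025 genes of the promoter table in 1.81%, 12.7% and 1.97%. A match is a description of these letters and not of binding.

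Pluripotency genes fell together, and the core list had the lower median. Of 15 tested genes of the core list 14 were lower and 0 higher, with a median difference of -4.38 against 0.05 over all genes tested. Nanog lay at 6.35 and 6.32 in the EBs and at 10.41 and 11.01 in the ESCs (-4.38 ± 0.26, adjusted p = 3.08e-06). Sox2, which neural progenitors keep, lay at 9.98 and 9.95 in the EBs and at 10.82 and 11.10 in the ESCs (-0.99 ± 0.19, adjusted p = 0.00344). Nanog thus fell by far more than Sox2, and neither overlapped between the groups. Dppa2 (-4.76), L1td1 (-4.77) and Fgf4 (-2.59) fell strongly, Sall4 (-0.94) and Trim71 (-0.77) by less, and Lin28a, an inhibitor of let-7 miRNA maturation, did not pass (-0.09 ± 0.15, adjusted p = 0.667). Of 18 naive genes 17 were lower and 0 higher (16 with no floor, median -2.73), among them Klf4 (-2.88), Klf2 (-2.30), Tfcp2l1 (-3.54) and the LIF targets Socs3 (-2.07) and Stat3 (-0.65). Tbx3 was the exception (-0.52 ± 0.43, adjusted p = 0.351). Core calls numbered 14 against either ESC array alone, and naive calls 14 against ESC 1 and 17 against the array labelled ESC 2. Of 11 germline genes on the array 8 were lower and 0 higher with no floor. Only 4 of them exceeded the floor (Sycp3, Ddx4, Tex19.1 and Dazl, from -4.57 to -1.77), and the other 7 did not on any of the 4 arrays.

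Genes of the formative or primed state, which ESCs pass on their way out of naive pluripotency, depended on the ESC array. All 10 tested members read higher on ESC 1 than on the array labelled ESC 2, by a median of 1.37, whereas 13 of 18 naive genes read higher on the latter. So did 5880 of all 10488 genes tested. Against ESC 1 alone 0 were higher and 7 lower (median -1.49), and against the array labelled ESC 2 alone 3 were higher and 2 lower (median -0.23). Dnmt3a, a de novo DNA methyltransferase, lay at 8.49 and 8.43 in the EBs and at 9.10 and 7.76 in the ESCs. Its EB level lay between the ESC arrays, -0.64 from ESC 1 and 0.70 from the other. Fgf5, the usual marker of this state, lay at 5.55 and 5.36 in the EBs and at 8.19 and 6.99 in the ESCs (-2.13 ± 0.71, adjusted p = 0.0365). Its EB arrays lay below both ESC arrays, but the call was lost without ESC 1, without EB 1 and without EB 2. On all 4 arrays together, 1 member was higher (Sall2) and 4 were lower (Fgf5, Dnmt3b, Zic2 and Zic5), and without EB 1 or without EB 2 the counts were 0 and 2. Of 16 genes of the primitive streak 7 were tested and 0 passed, and 8 more, Mesp1 and Tbx6 among them, stayed under the floor on all 4 arrays.

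Most heart muscle genes rose. With no floor, 21 of the 25 sarcomere and calcium handling genes on the array were higher and 0 lower, with a median of 3.09. Of the 25, 20 exceeded the floor and were all called higher, 16 of them with the ESC mean below it, and all but Ldb3 passed against either ESC array alone. Tnnt2 lay at 11.03 and 10.90 in the EBs and at 5.16 and 5.16 in the ESCs (5.81 ± 0.17, adjusted p = 7.95e-08). Myh6, the atrial and adult mouse myosin heavy chain, lay at 9.84 and 9.95 in the EBs and at 5.48 and 5.27 in the ESCs (4.52 ± 0.31, adjusted p = 7.79e-06). Myl2, the ventricular light chain, lay at 6.70 and 7.0 in the EBs and at 4.08 and 3.76 in the ESCs (2.93 ± 0.16, adjusted p = 2.11e-06). EB arrays stood above ESC arrays in each of the 3, with no overlap. The smallest rises were those of Ldb3 (0.73) and Tnni3 (0.95), the adult cardiac troponin I, while the fetal form Tnni1 rose by 4.65. Nppa, Nppb, Pln, Casq2 and Tcap stayed under the floor on all 4 arrays. Of the 12 cardiac transcription factors on the array 11 were higher and 0 lower with no floor (median 2.34). Of the 10 that exceeded the floor 9 had the ESC mean below it, and all 10 were called, among them Mef2c (3.92), Tbx20 (3.91), Isl1 (3.76) and Gata4 (2.53), and Nkx2-5 by the least (0.78). Tbx5 and Irx4 were under the floor.

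Blood and vessel genes rose as well. Of 15 primitive erythroid genes on the array 9 were higher and 0 lower with no floor (median 0.95). Of the 9 above the floor 8 were called, with Gfi1b not passing (0.29 ± 0.15, adjusted p = 0.143). Alas2 lay at 6.66 and 6.34 in the EBs and at 4.23 and 3.74 in the ESCs (2.51 ± 0.22, adjusted p = 3.38e-05), so both EB arrays were above both ESC arrays. The erythroid regulators Gata1, Klf1 and Nfe2 stayed under the floor, while Lmo2 rose by 3.01. Of 20 endothelial genes on the array 16 were higher and 0 lower, with the floor and without it (median 2.02 with none), and the counts were the same against either ESC array alone. Kdr, the main VEGF receptor, lay at 8.82 and 8.93 in the EBs and at 4.01 and 3.60 in the ESCs (5.07 ± 0.18, adjusted p = 2.29e-07), and Cdh5, the cadherin of endothelial junctions, at 7.68 and 7.65 in the EBs and at 4.19 and 3.70 in the ESCs (3.72 ± 0.20, adjusted p = 1.75e-06). Pecam1, which ESCs also express, lay at 7.61 and 7.54 in the EBs and at 7.39 and 8.0 in the ESCs and did not pass (-0.12 ± 0.59, adjusted p = 0.889). The defining macrophage markers Csf1r, Ptprc, Tyrobp and C1qa were under the floor on all 4 arrays, although the chemokine Ccl3 lay at 7.89 and 7.71 in the EBs and at 3.52 and 3.70 in the ESCs (4.19 ± 0.15, adjusted p = 2.56e-07). Of the 15 macrophage genes 7 were higher and 1 lower with no floor, 12 of the 15 being under the floor on all 4 arrays, and Cd68 was lower (-2.09), a call lost without the array labelled ESC 2 or either EB array.

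Endoderm genes were higher in part, and neural genes moved both ways. Of 16 secreted products of visceral endoderm on the array 8 were higher and 1 lower with no floor (median 0.46), and 9 were under the floor on all 4 arrays. The 6 called among the 7 tested included Ttr (4.53), Rbp4 (3.86) and Afp (3.81), and Trf was lower (-1.52), a call lost without the array labelled ESC 2 or either EB array. Of 9 endoderm transcription factors on the array 7 were higher, with the floor and without it, from Hhex (1.02) to Gata6 (3.96), and 3 with a floor of 100. Nodal (-3.14), its antagonists Lefty1 (-4.99) and Lefty2 (-4.0), and its coreceptor Tdgf1 (-3.14) were the 4 members of the Nodal and BMP list that fell. The 11 that rose included the ligands Bmp5 (4.42), Bmp2 (3.12) and Bmp4 (1.58) and their targets Id2 (3.58) and Smad6 (2.47). Of 17 neural genes on the array 4 were higher and 3 lower with no floor, against 15.1% and 9.76% over all genes. Of the 8 tested Pax6 was higher (1.43) and 4 were lower, with Stmn2 at 7.29 and 7.39 in the EBs and at 10.04 and 10.40 in the ESCs (-2.88 ± 0.18, adjusted p = 4.00e-06), and the lower count was 2 without ESC 1, 2 without EB 1 and 1 without EB 2. Of 15 tested genes of FGF signalling 5 were higher and 5 lower (3 higher without EB 1, 3 higher and 3 lower without EB 2). Fgf4 (-2.59) and the feedback targets Spry4 (-2.17) and Etv5 (-2.06) fell, and Fgf10 (2.29) and Fgfr2 (1.93) rose. Of 13 tested Wnt genes 9 were higher and 0 lower, with Wnt2 (4.62) and the antagonist Dkk1 (3.52) rising most and the target Axin2 not passing (0.63 ± 0.31, adjusted p = 0.129). Of 7 tested trophoblast genes Plac1 (3.57), Gata3 (2.46) and Hand1 (1.75), which is also a cardiac factor, were higher and Tfap2c (-2.02) was lower. Of 37 Hox genes on the array Hoxb2 alone exceeded the floor, and it was higher (2.53). With no floor 7 of the 37 were higher and 0 lower, the former close to the share of 15.1% over all genes (9.76% lower).

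Connective tissue genes were higher too, and here the ESC arrays stood apart. Of 16 tested fibroblast genes 11 were higher and 1 lower, with 8 higher against ESC 1 and 13 against the array labelled ESC 2. Col1a1, the main fibrillar collagen, lay at 10.08 and 10.16 in the EBs and at 8.30 and 6.51 in the ESCs (2.72 ± 0.80, adjusted p = 0.0228), a call lost without the array labelled ESC 2 or either EB array. Lum lay at 7.91 and 8.05 in the EBs and at 2.73 and 2.78 in the ESCs (5.23 ± 0.39, adjusted p = 1.34e-05). Col1a1 was thus already present on ESC 1, while Lum was near background on both ESC arrays. The mean signal of 5 defining fibroblast markers (Col1a1, Col1a2, Col3a1, Thy1 and Postn) was 6.95 on ESC 1 and 5.47 on the array labelled ESC 2, with 4 and 3 of them above the floor, against 8.90 and 8.94 in EBs. The SSEA1 sort served to remove feeder cells from the ESCs, and their part in these values was not tested. Thy1 itself was lower in EBs (-1.71), a call lost without ESC 1 or either EB array. Of 6 tested smooth muscle genes 2 were higher, Acta2 (4.17) and Myl9 (1.63), and 0 against ESC 1 alone. Acta2, smooth muscle α-actin, lay at 12.09 and 12.06 in the EBs and at 9.18 and 6.65 in the ESCs, with both EB arrays above both ESC arrays. The smooth muscle count of 2 of 6 stands beside a share of 25.2% higher over all genes tested. Of 10 basement membrane genes the collagen IV chains Col4a1 (2.32) and Col4a2 (2.18) and Sparc (1.70) were higher, and Lamc1 (-0.79) and Nid2 (-0.92) lower. These counts are close to the shares over all genes tested (25.2% higher and 17.0% lower). Of 12 genes of the mesenchymal transition list 11 were higher and 0 lower, among them Foxc1 (3.88), Cdh2 (3.44) and Snai2 (3.11). Of 11 tested epithelial junction genes 4 were higher and 2 lower: the keratins Krt18 (2.61) and Krt8 (2.40) rose, and E-cadherin (Cdh1, -1.33) and Epcam (-0.88) fell. The lower count is close to the share of 17.0% over all genes tested.

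Heterochromatin and cell cycle genes had small median differences. Of 17 tested genes of HP1 proteins and heterochromatin 0 were higher and 4 lower, against 25.2% and 17.0% over all genes tested. The 4 were the HP1 partner Trim28 (-0.57), the histone chaperone Daxx (-0.46), the remodeller Hells (-1.18) and Morc3 (-1.38). The median of this list was -0.19, and Trim28 passed against neither ESC array alone and Daxx against ESC 1 alone, and 2 calls were left without EB 1 or without EB 2. Of 14 tested Polycomb genes 6 were lower and 4 higher. Cbx7, the Polycomb chromodomain protein of ESCs, lay at 4.92 and 5.03 in the EBs and at 7.36 and 8.0 in the ESCs (-2.71 ± 0.22, adjusted p = 2.55e-05), and Cbx2 lay at 8.64 and 8.53 in the EBs and at 7.34 and 7.30 in the ESCs (1.26 ± 0.15, adjusted p = 2.43e-04). Cbx8 (1.31) and Bmi1 (1.62) rose like Cbx2, and Phc1 (-2.31) and Eed (-1.39) fell like Cbx7. Of 12 replication licensing genes 8 were lower (median -0.54), and of 11 tested mitosis genes 6 were lower (median -0.55). Over all 10488 genes tested, 5880 read higher on the array labelled ESC 2 and 4608 on ESC 1. All 11 mitosis genes read higher on the array labelled ESC 2 than on ESC 1, and against ESC 1 alone 2 were called. Without EB 1 or EB 2 the mitosis count was 1 or 3, and the licensing count 3 in both cases. Of 7 tested D cyclins and cell cycle inhibitors Ccnd2 (4.14) and Cdkn1c (2.41) were higher, and 4 were against ESC 1 alone. The count of 2 of 7 on all 4 arrays is close to the share of 25.2% higher over all genes tested. Of 12 tested glycolysis genes 3 were lower (Pfkp, Pdk1 and Hk2), against 17.0% over all genes tested, and 6 were lower after median centring. Of 9 tested p53 targets 5 were lower and 1 higher, but 2 and 0 without ESC 1, without EB 1 or without EB 2.

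Imprinted genes were mostly higher in EBs. Of 16 tested, 12 were higher and 1 lower, with a median of 2.39, and of 18 on the array 13 and 2 with no floor. Besides Igf2 and Dlk1 they included Peg3 (3.16), Mest (3.05), Cdkn1c (2.41), a growth-restraining cyclin-dependent kinase inhibitor, and Igf2r (2.69), which removes Igf2. Phlda2 was the lower one (-1.08), a call lost without either EB array. Meg3, the maternally expressed noncoding RNA of the Dlk1 domain, lay at 6.27 and 5.61 in the EBs and at 5.28 and 9.36 in the ESCs, and Rian of the same domain at 3.30 and 3.10 in the EBs and at 3.10 and 6.01 in the ESCs. Of these 4 arrays the one labelled ESC 2 had by far the highest level of both RNAs, and neither passed (adjusted p = 0.395 and 0.233).

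Differences between the ESC arrays were large in a limited set of genes. A replicate difference of 2 or more on the log2 scale occurred in 41 genes between the ESC arrays and in 0 between the EB arrays, 24 of the 41 being higher on ESC 1, and 13 of the 41 were called. In 4 genes the EB mean lay between the ESC arrays by at least 1 on each side, and all 4 were higher on ESC 1. Hprt, a purine salvage enzyme, lay at 6.28 and 6.84 in the EBs and at 8.40 and 4.25 in the ESCs. Fst, an activin antagonist, lay at 7.38 and 7.52 in the EBs and at 8.68 and 5.62 in the ESCs. Ptgs2 (at 5.87 and 5.78 in the EBs and at 7.53 and 4.77 in the ESCs) and Thbs1 (at 8.01 and 8.22 in the EBs and at 9.16 and 6.61 in the ESCs) had the same order, so none of the 4 has a single direction from ESC to EB. In 17 genes the fits against the single ESC arrays passed with opposite signs, 7 of them higher on ESC 1, and 0 of the 17 were called on all 4 arrays. Myc, named here after its values were seen, was one of them (8.13 and 7.98 in EBs, 8.97 and 6.64 in ESCs).

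**Figure D2:**
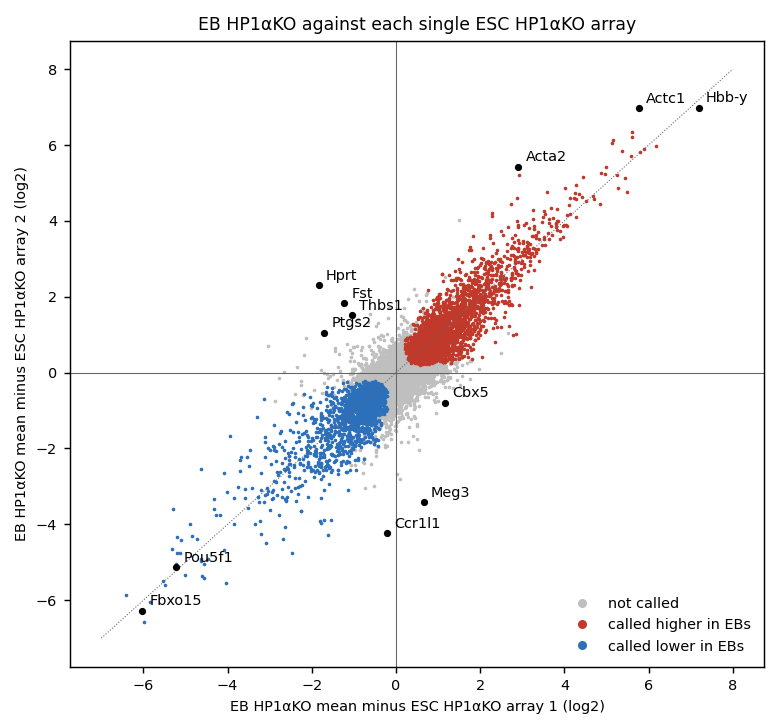
EB HP1αKO mean minus ESC 1 (horizontal axis) against EB HP1αKO mean minus the array labelled ESC 2 (vertical axis), log2, for 10488 genes; red and blue are genes called higher and lower in EBs, grey the rest, the dotted line equality, and named points are black. Actc1 and Hbb-y are high and Pou5f1 and Fbxo15 low on both axes, whereas Hprt, Fst, Ptgs2 and Thbs1 lie in the upper left and Cbx5 and Meg3 in the lower right quadrant. Acta2 is higher in EBs on both axes, and Ccr1l1 is low on the vertical axis alone.

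**Figure D3:**
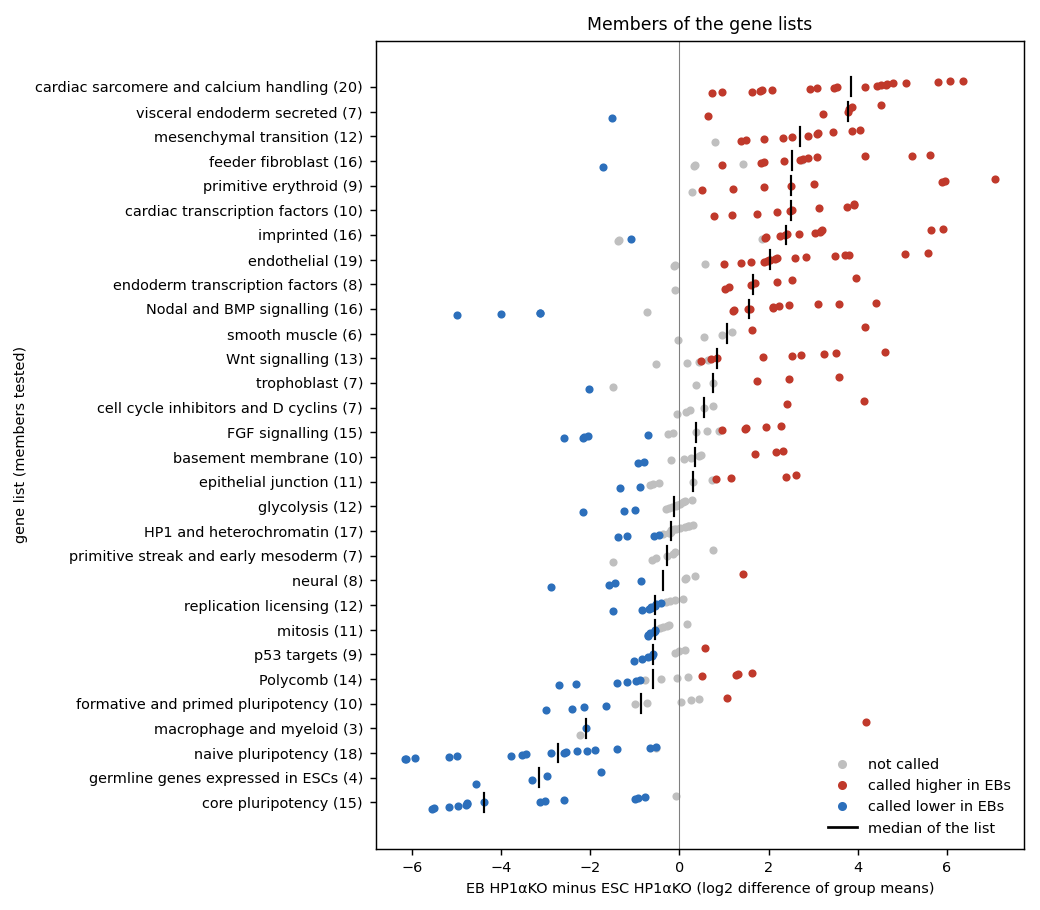
EB HP1αKO minus ESC HP1αKO (horizontal axis, log2 difference of group means) of each tested member of the gene lists with at least 3 members tested, ordered by the list's median (black bar); red and blue points were called higher and lower, grey points were not called. Cardiac sarcomere genes (median 3.85 over the 20 tested) stand at the top and core pluripotency genes (median -4.38) at the bottom, and members under the floor on all 4 arrays are left out.

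The same comparison in the other genotypes shows what the HP1αKO cells shared with them. In WT 22.0% of genes were called higher and 14.7% lower, and in HP1βKO 22.7% and 15.9%. The group means of these comparisons share no array, but the spread of each gene was taken from all 12 arrays in each of them. A gene with a small spread is thus more easily called in every comparison, so the shared calls below are not fully separate results. Across 10258 genes tested in both, the EB minus ESC differences of HP1αKO and WT had a correlation of 0.931, and across 10112 genes those of HP1αKO and HP1βKO had one of 0.855. Genes are not independent replicates, and all 12 arrays were normalised together. Of the HP1αKO calls 3126 were called in WT with the same sign (70.6% of these calls, 81.1% of the 3854 WT calls), and 1 with the opposite sign. With HP1βKO 2900 were shared (65.5% of these calls, 72.3% of the 4012 HP1βKO calls), and 25 had opposite signs.

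Against WT the difference of differentiation (EB minus ESC in HP1αKO, minus the same in WT) passed in 25 of 10712 genes (0.233%), 19 of them more positive and 6 more negative in HP1αKO, with 605 at an unadjusted p below 0.05. Ccl3 lay at 4.62 and 4.84 in the WT EBs and at 3.62 and 3.47 in the WT ESCs, so its rise was larger by 3.01 ± 0.21 in HP1αKO (adjusted p = 8.45e-04). Gja5, a connexin of the atrium and of arterial endothelium, lay at 7.48 and 7.22 in the EBs and at 4.02 and 3.80 in the ESCs of HP1αKO and at 4.61 and 4.53 in the WT EBs and at 3.84 and 3.86 in the WT ESCs (2.71 ± 0.20, adjusted p = 8.45e-04). Foxd1, a forkhead factor of stromal progenitors, rose by 3.85 in HP1αKO and differed by 0.90 in WT (2.95 ± 0.31, adjusted p = 0.00412). In all 3 the HP1αKO EB arrays were the highest of the 8, and all others, the WT EB arrays included, were under the floor. Of the 25 genes 13 had a mean above the floor in the HP1αKO EBs alone, so the floor largely set their positive direction and the sizes of their differences are uncertain.

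Muscle genes made up part of the larger rises. Myl2 (2.53 ± 0.23, adjusted p = 0.00348), the muscle ubiquitin ligase subunit Asb2 (2.29 ± 0.22, adjusted p = 0.00354), Myl3 (1.79 ± 0.17, adjusted p = 0.00374) and Myom1 (1.67 ± 0.17, adjusted p = 0.00412) were among the 19. Of the 25 sarcomere genes on the array 3 passed with no floor (0.201% over all genes), 24 differences were above 0 and the median was 0.87, against 0.01 over all genes. The endothelial sialomucin Emcn (2.19 ± 0.28, adjusted p = 0.0145) was higher as well, but the endothelial list as a whole differed little. Of its 20 genes on the array 1 passed with no floor, 12 differences were above 0 and the median was 0.16. Among the 6 more negative were Cfc1, a Nodal coreceptor, at 5.59 and 5.84 in the EBs and at 4.23 and 4.78 in the ESCs of HP1αKO and at 7.90 and 8.08 in the WT EBs and at 4.39 and 4.37 in the WT ESCs (-2.40 ± 0.26, adjusted p = 0.0047), the imprinted antisense RNA Airn (-2.40 ± 0.24, adjusted p = 0.00412), and the liver and yolk sac genes Tdo2 (-2.07 ± 0.22, adjusted p = 0.00412) and Apob (-1.67 ± 0.26, adjusted p = 0.045). Reln, a secreted guidance glycoprotein, was another (-1.60 ± 0.21, adjusted p = 0.0155). Airn and Apob exceeded the floor in the WT EBs alone and stayed under it on all HP1αKO arrays. This fixes their negative direction and leaves the sizes of their differences uncertain.

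Of the 15 core pluripotency genes 12 had a more negative value in HP1αKO than in WT (median -0.74), but 0 of them and 0 of 18 naive genes passed the test of the difference. Over all 10488 genes tested 5042 had a more negative value, with a median of 0.01. The ESC groups deviated together by replicate number (r = 0.41 for HP1αKO with WT), and with a replicate block among the ESC arrays 117 genes passed (1.09%), with 3 core and 3 naive genes more negative. Pou5f1 fell by 5.17 against a WT difference of -3.95 (-1.23 ± 0.20, adjusted p = 0.0557), and Dppa5a had -2.65 in WT (-2.52 ± 0.40, adjusted p = 0.0511). The count against WT depended on single arrays: it was 87 without the array labelled ESC WT 2, whose Cbx5 level (8.29, against 9.66 on ESC WT 1) also opposes its label, and 13 without either HP1αKO EB array. Without both opposing ESC arrays 165 passed, 24 of the 25 among them. HP1αKO and WT also differ in their line label, so genotype and line cannot be told apart here.

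Against HP1βKO, which carries the same line label, 214 of 10755 genes passed (1.99%), 146 more positive and 68 more negative in HP1αKO, with 1238 at an unadjusted p below 0.05. The shared label does not show that the cells are otherwise alike. Hprt lay at 6.28 and 6.84 in the HP1αKO EBs and at 3.83 and 4.12 in the HP1βKO EBs. Meg3 lay at 6.27 and 5.61 in the former and at 10.0 and 10.32 in the latter. The WT EBs, of another line label, were nearer to the HP1βKO EBs in both genes (Hprt 4.22 and 4.40, Meg3 9.73 and 9.31). Genotype and clone cannot be told apart here. The heart muscle genes differed most. Actc1 lay at 8.91 and 8.06 in the HP1βKO EBs and at 8.45 and 6.92 in the HP1βKO ESCs, where both states overlapped, against a clear separation in HP1αKO (5.57 ± 0.85, adjusted p = 0.00987). Myh6 lay at 5.55 and 5.13 in the HP1βKO EBs and at 5.58 and 5.71 in the HP1βKO ESCs (4.82 ± 0.44, adjusted p = 6.44e-04), and Myh7, the slow myosin heavy chain, at 5.05 and 4.76 in the HP1βKO EBs and at 4.61 and 5.01 in the HP1βKO ESCs (4.34 ± 0.26, adjusted p = 5.40e-05). These HP1βKO EB arrays were thus at or near their ESC levels, unlike the HP1αKO EB arrays. Myl7 (4.88 ± 0.46, adjusted p = 6.94e-04) and the membrane carbonic anhydrase Car4 (4.49 ± 0.69, adjusted p = 0.00987) followed. Car4 lay at 9.67 and 9.51 in the HP1αKO EBs and at 7.30 and 5.45 in the HP1αKO ESCs. In HP1βKO it lay at 7.59 and 7.13 in the EBs and at 8.82 and 8.45 in the ESCs. The ESC levels of Car4 thus differed between the genotypes as well. With no floor 19 of the 25 sarcomere genes on the array passed (1.28% over all genes), all more positive, with a median of 2.52. Of the 214 genes 66 had a mean above the floor in the HP1αKO EBs alone. Among them were Myocd and the sarcomere list members Myh7, Myl2, Myl3, Myom1, Nebl, Smyd1, Csrp3 and Ryr2. This fixes their positive direction. Of the 10 tested cardiac transcription factors Mef2c (1.44 ± 0.21, adjusted p = 0.0089) and Myocd (2.67 ± 0.31, adjusted p = 0.00236) were more positive, and Tbx2 more negative (-1.49 ± 0.23, adjusted p = 0.0107). Gata4 (0.10 ± 0.31, adjusted p = 0.951) and Isl1 (0.28 ± 0.27, adjusted p = 0.797) did not pass.

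Several pluripotency genes fell further in HP1αKO than in HP1βKO. Dppa5a lay at 10.91 and 11.02 in the HP1βKO EBs and at 11.51 and 12.08 in the HP1βKO ESCs (-4.35 ± 0.40, adjusted p = 6.44e-04), so its HP1βKO EB level was close to the ESC level. Dppa2 lay at 8.29 and 8.02 in the HP1βKO EBs and at 8.27 and 9.52 in the HP1βKO ESCs (-4.02 ± 0.59, adjusted p = 0.00819). Pou5f1 lay at 8.81 and 8.51 in the HP1βKO EBs and at 11.27 and 11.31 in the HP1βKO ESCs (-2.55 ± 0.20, adjusted p = 3.21e-04). Dppa2 overlapped between the states of HP1βKO and Pou5f1 did not. Lncenc1 (-3.52 ± 0.61, adjusted p = 0.0189), Fbxo15 (-3.15 ± 0.43, adjusted p = 0.00528), Zfp42 (-2.83 ± 0.48, adjusted p = 0.0167) and Nanog (-2.76 ± 0.37, adjusted p = 0.0047) fell further too. Of the core genes 6 passed with a steeper fall, and Sox2 and Lin28a the other way, with Sox2 at 1.34 ± 0.27 (adjusted p = 0.0437). Otx2, a formative gene that anterior neural tissue and visceral endoderm also express, differed by -4.02 in HP1βKO and by 0.27 in HP1αKO (4.29 ± 0.40, adjusted p = 6.44e-04).

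Other tissue lists were mixed. Of 8 tested neural genes Pax6 (1.60 ± 0.31, adjusted p = 0.0305) and Stmn2 (1.68 ± 0.25, adjusted p = 0.009) were more positive in HP1αKO, and 7 of the 8 differences were above 0. Of 11 epithelial junction genes Cdh1 (1.0 ± 0.18, adjusted p = 0.0231) and Esrp1 (1.79 ± 0.34, adjusted p = 0.0305) passed, and all 11 were above 0 (median 1.09). Over all 10488 genes tested 5252 of these differences were above 0. Of the endoderm transcription factors Sox17 (1.52 ± 0.30, adjusted p = 0.0349) and Foxa1 (1.99 ± 0.42, adjusted p = 0.0481) were more positive. Foxa1 and Pax6 exceeded the floor in the HP1αKO EBs alone, which fixes their positive direction. With no floor 1 of 9 endoderm transcription factors and 4 of 17 neural genes passed, against 1.28% over all genes. Of 9 erythroid genes 1 passed, with Hba-x at 5.98 in HP1βKO and 5.97 in HP1αKO (-0.01 ± 0.49, adjusted p = 0.997). Of 19 endothelial genes 0 passed. Apoa1 (-1.95 ± 0.27, adjusted p = 0.0055) and Rbp4 (-1.44 ± 0.24, adjusted p = 0.0135) of the visceral endoderm list rose less in HP1αKO. Of the 214 genes 18 had a mean above the floor in the HP1βKO EBs alone. Apoa1, at 5.34 and 5.57 in the HP1αKO EBs, was among them, so the floor largely set its negative direction. The imprinted adaptor gene Grb10 rose in HP1αKO (2.37) but had -1.87 in HP1βKO (4.24 ± 0.49, adjusted p = 0.00214). Of 10 Hox genes tested 4 passed (Hoxd13, Hoxa9, Hoxa11 and Hoxd10), and each exceeded the floor in the HP1βKO EBs alone, which fixes their negative direction. Hoxa9 lay at 6.59 and 6.56 in the HP1βKO EBs and at 4.22 and 4.46 in the HP1βKO ESCs (-2.09 ± 0.24, adjusted p = 0.00214). The count against HP1βKO lay between 95 and 115 when any 1 of the 4 EB arrays was left out and was 140 without ESC HP1βKO 1. Without both ESC arrays whose Cbx5 opposes the label it was 583, with 211 of the 214 among them, and with a replicate block among the ESC arrays 679 (6.31%).

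**Figure D4:**
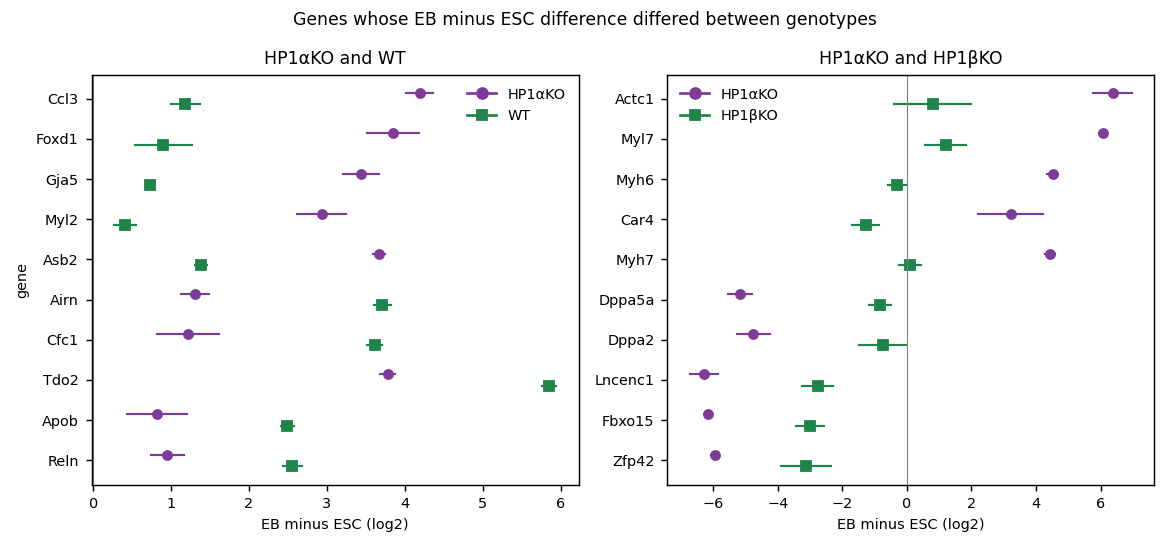
EB minus ESC (horizontal axis, log2) of genes whose difference differed between HP1αKO (purple circles) and WT (left, green squares) or HP1βKO (right, green squares); symbols are differences of group means and lines run from the lowest to the highest of the 4 differences between an EB and an ESC array. Ccl3, Foxd1 and Gja5 rose more in HP1αKO than in WT, and Actc1, Myh6 and Myh7 more than in HP1βKO, with lines that do not overlap.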

How the data were processed

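Total RNA from 12 samples, 2 per group, was hybridised to 1 array each. The authors deposited log2 signals, computed by RMA (background correction, quantile normalisation and probe-set summary over all arrays) in Affymetrix Expression Console, so group differences in overall RNA amount are removed. The methods name an exon array, whereas the platform annotation is that of a Mouse Gene 1.0 ST array; no source used here gives versions. Of 35556 features, 21789 had 1 gene symbol, 1621 several and 12146 none. The feature with the highest mean stood for each of 19938 genes, and 10488 exceeded a signal of 45 on at least 1 of the 4 HP1αKO arrays. A deposited intensity has no count depth, and 2 arrays per group limit the precision.

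Group means of all 12 arrays were fitted with limma 3.58.1 in R 4.3.3 (6 residual degrees of freedom, empirical Bayes, Benjamini-Hochberg over all genes tested, threshold 0.05), and differences between genotypes as contrasts of that fit. The code was tested on simulated data. Named genes, locus numbers left out, were the 15 largest rises and falls with 4 pairs of the same sign and at least 1 (log2) from each ESC array, the 5 largest each way of both genotype contrasts, genes turning between the ESC arrays, Cbx genes and members of 31 gene lists (484 entries, 343 tested). Members and lists were chosen with earlier results of these data known. Alternatives were another floor, feature choice, centring, array weights, an intensity trend, fewer arrays, a replicate block and the study's rule of a minimum fold in every pair. Promoters were RefSeq sequences of GRCm38.p6, matched by symbol for 8458 of the genes tested.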

Additional observations from a re-analysis of the deposited data

Results flagged for a closer look

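The change from ESC to EB differed between HP1αKO and WT, by limma's test of the difference itself, most in the following genes, with locus numbers left out (Gm6083 at -2.09 ± 0.32 against WT and -3.53 ± 0.32 against HP1βKO). Ccl3, Foxd1, Gja5 and Myl2 were under the floor on all WT arrays and exceeded it in the HP1αKO EBs alone. This fixes their positive direction and leaves their sizes uncertain. Airn and Apob exceeded the floor in the WT EBs alone, which likewise fixes their negative direction. The change was more positive in HP1αKO for Ccl3 (3.01 ± 0.21, adjusted p = 8.45e-04), Foxd1 (2.95 ± 0.31, adjusted p = 0.00412), Gja5 (2.71 ± 0.20, adjusted p = 8.45e-04), Myl2 (2.53 ± 0.23, adjusted p = 0.00348) and Asb2 (2.29 ± 0.22, adjusted p = 0.00354). It was more negative for Airn (-2.40 ± 0.24, adjusted p = 0.00412), Cfc1 (-2.40 ± 0.26, adjusted p = 0.0047), Tdo2 (-2.07 ± 0.22, adjusted p = 0.00412), Apob (-1.67 ± 0.26, adjusted p = 0.045) and Reln (-1.60 ± 0.21, adjusted p = 0.0155). All 10 had positive differences in both genotypes and differed in their size.

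Against HP1βKO the change was more positive in HP1αKO for Actc1 (5.57 ± 0.85, adjusted p = 0.00987), Myl7 (4.88 ± 0.46, adjusted p = 6.94e-04), Myh6 (4.82 ± 0.44, adjusted p = 6.44e-04), Car4 (4.49 ± 0.69, adjusted p = 0.00987) and Myh7 (4.34 ± 0.26, adjusted p = 5.40e-05). It was more negative for Dppa5a (-4.35 ± 0.40, adjusted p = 6.44e-04), Dppa2 (-4.02 ± 0.59, adjusted p = 0.00819), Lncenc1 (-3.52 ± 0.61, adjusted p = 0.0189), Fbxo15 (-3.15 ± 0.43, adjusted p = 0.00528) and Zfp42 (-2.83 ± 0.48, adjusted p = 0.0167). Myh6 (4.52 in HP1αKO, -0.30 in HP1βKO) and Car4 (3.21 and -1.27) had opposite signs, and the other 8 did not. Myh7 exceeded the floor in the HP1αKO EBs alone, which fixes its positive direction. Myh6, Myh7 and Myl7 belong to families with related sequences, and hybridisation between their probes was not tested.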

How the results depend on the processing

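The 30 named rises and falls passed with the same sign in all 450 alternative values. The count of 4428 calls ranged from 2525 (without EB 1) to 4208 when 1 array was left out, with 1614 to 2570 higher and 897 to 1893 lower genes. Requiring every pair of arrays to differ by 1.5-fold gave 2747 genes, and by 2.5-fold 944. Against WT the 25 calls became 15 with the arrays of the compared groups alone, 14 with a floor of 100, 40 with no floor, 13 with array weights, and 13 to 87 with 1 array left out, of which 38 without ESC HP1αKO 1 and 13 without EB WT 1. Without both ESC arrays whose Cbx5 opposes the label they were 165. Against HP1βKO the 214 calls became 135 with a floor of 100, 95 to 290 with 1 array left out, and 583 without those ESC arrays. Of 189 alternative values of the 10 named WT differences 16 no longer passed (Apob 10, Reln 5, Cfc1 1), and of 190 of the HP1βKO differences 14 (Lncenc1 6, Zfp42 4, Car4 2, Actc1 1, Dppa2 1). Of 930 list counts 74 moved by over 1.5 times.

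Replicate numbers did not pair ESC HP1αKO with EB HP1αKO (correlation of deviations -0.02), while ESC groups deviated together (0.41, 0.50 and 0.30). With the replicate block the counts were 4565, 25 and 218. With a replicate block among the ESC arrays only they were 5494, 117 and 679. The causes of these shifts were not tested. Signals near the floor limit the size of the differences of genes absent from one group.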
